A study of Mus musculus with 6 samples.

Results

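Chemokines are small secreted proteins that draw leukocytes along a concentration gradient, and chemokine receptors are the G protein-coupled receptors through which leukocytes read it. The members were chosen by their names: every gene whose platform symbol begins with Ccl, Cxcl, Cx3cl, Xcl, Ccr, Cxcr, Cx3cr, Xcr or Ackr and goes on with a number and at most 1 further letter. This gave 53 genes, 33 ligands and 20 receptors, of 18193 genes that had a probe set with 1 symbol. A probe set is the group of short array probes that reports on a transcript. Where a gene had several, the probe set of highest mean over the 6 arrays was taken. Of the 53 members, 38 (25 ligands and 13 receptors) lay at or above the filter level of 4.88, the 40th percentile of probe set means, and were tested. The other 15 were described only.

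The tissue was epididymal white fat, a visceral depot, of male C57BL/6 mice aged 16 weeks, kept on chow diet and harvested while eating freely. Control mice were FTO flox/flox, in which the gene for the RNA demethylase Fto is flanked by loxP sites. AFO mice were Adiponectin-cre FTO flox/flox, with the same alleles and a Cre recombinase under adiponectin control, which is active in fat cells and not in leukocytes. Total RNA of each genotype was measured on 3 arrays, each holding a separate RNA pool numbered 1 to 3, and the number of mice in a pool is not given in the sources used here. The p-values measure the spread between these pools. Values are log2 expression levels, so a difference of 1 is a doubling of signal, and array medians ran from 5.35 to 5.43. Signals of different probe sets depend on their probes, so no level is set against that of another gene.

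In white fat, resident macrophages, lymphocytes, vessel cells and stromal cells make and read most chemokines, and fat cells contribute some. CC and CXC chemokines are named for the spacing of their first cysteines. Inflammatory members such as Ccl2 are induced at sites of injury and recruit monocytes and other effector cells, while homeostatic members such as Cxcl13 and Cxcl12 place lymphocytes in lymphoid tissue and cells in their niches. Atypical receptors bind chemokines without the usual G protein signal and clear, store or transport them.

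Pool 2 stood apart from the other pools for more genes than separated the genotypes, and many of the chemokine genes were among them. Both pool 2 arrays lay above the other 4 for 18.1% of all genes and below them for 31.0%. The 3 AFO and 3 control values did not overlap for 3.50%. Whether pools 1 and 3 separate from each other by number was not tested. The first principal component held 67.6% of the variance, and which arrays it set apart is not given here. Summed over the 7 measured of 8 listed B cell markers, the log2 levels came to 50.4 to 54.0 on pool 2 arrays, compared with 32.3 to 35.9 for the other 4. Summed over the 8 measured of 10 T and NK cell markers, they came to 56.2 to 57.3 in pool 2 and 41.9 to 43.9 elsewhere. The gap between pool 2 and the other arrays was smallest for Pax5 (0.33) among the B cell markers and Cd8a (0.08) among the T and NK cell markers. In bulk tissue, fewer cells of a type and less RNA per cell cannot be told apart. Fat cell markers, 7 measured of 8 listed, summed to between 78.5 and 82.2 on every array. Fto itself read 6.11, 6.20 and 5.59 in control pools 1, 2 and 3 and 6.13, 5.45 and 5.95 in AFO pools 1, 2 and 3. The groups overlapped, and because the deleted exon is not given in the sources used here, these values do not check the genotype.

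With all 13453 genes tested together by limma without pairing, 0 of the 38 tested members differed between AFO and control fat at an adjusted p under 0.05, as did 0% of all genes. At an unadjusted p under 0.05 the count was again 0 members, against 1.03% of all genes. No member had 3 AFO values that lay wholly above or below its 3 control values, which was so for 3.50% of all genes (1.47% lower and 2.03% higher in AFO fat). The smallest unadjusted p among members was 0.184, for Ccr1, and the smallest limma adjusted p was 0.999999. The AFO mean was lower for 25 of the 38 (65.8%), against 54.3% of all genes, with a median difference of -0.06 for members and -0.01 for all genes. For 7 members (18.4%) the AFO value was lower in all 3 pools, against 12.8% of genes: the ligands Ccl17, Ccl24, Ccl27a, Cxcl1, Cxcl13 and Cxcl15 and the receptor Ackr3. For 0 members was it higher in all 3 pools, against 10.5% of genes. Among the 25 tested ligands 18 had a lower AFO mean (median difference -0.07), and among the 13 tested receptors 7 had (median -0.0002).

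**Figure D1:**
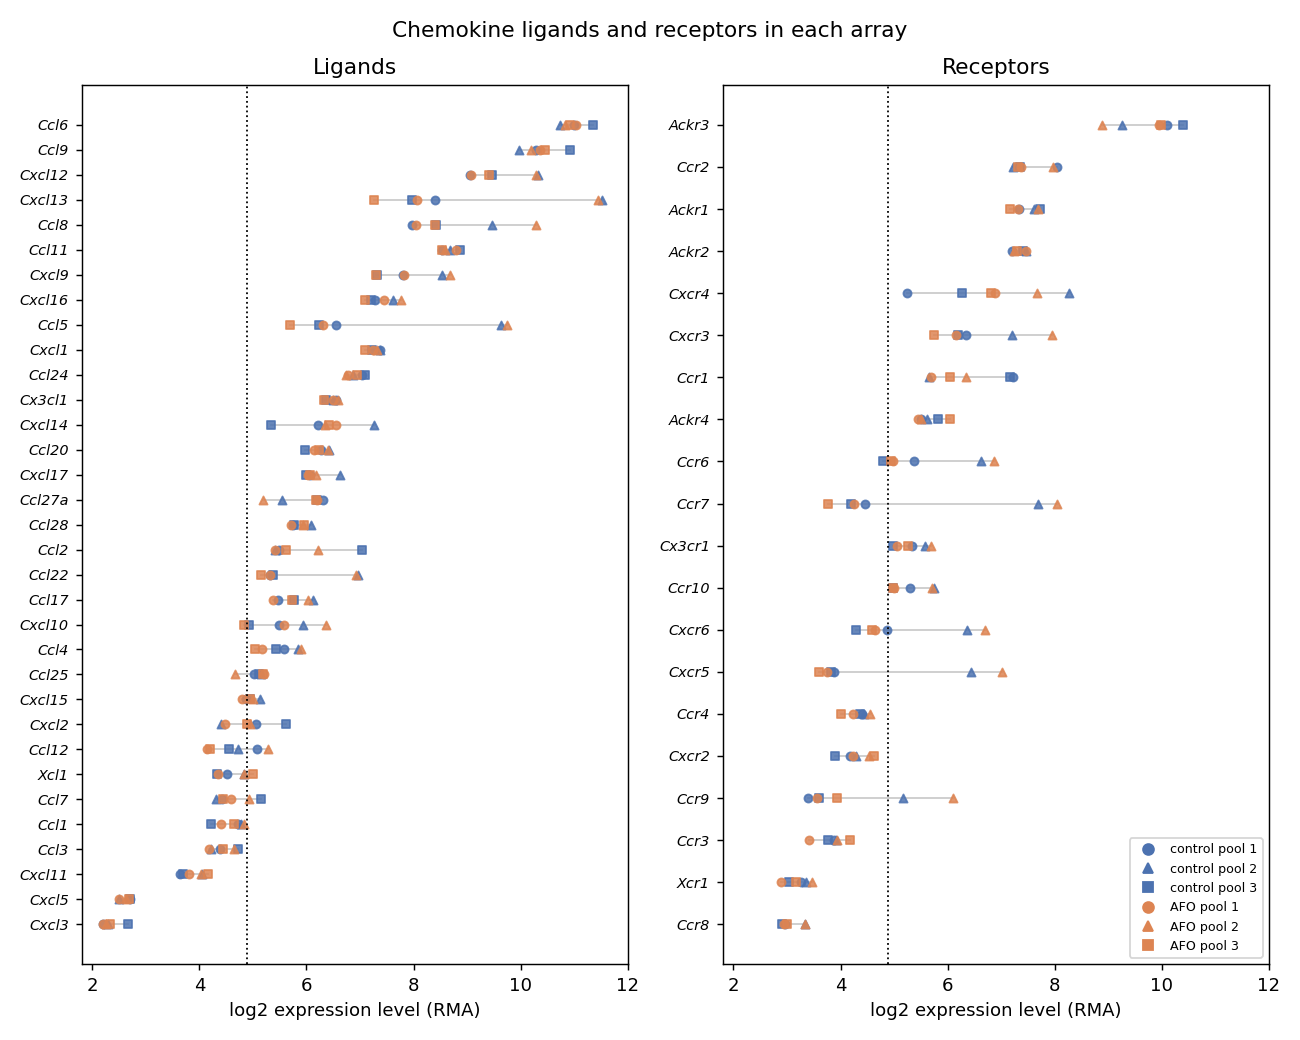
Log2 expression level (horizontal axis) of the 53 members in each of the 6 arrays, with marker colour for genotype, marker shape for pool number and a dotted line at the filter level. The pool 2 markers of Cxcl13, Ccl5 and Ccr7 lie far to the right of the other 4.

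A difference that misses the threshold does not show that the genotypes act alike, and the intervals differed widely among members. The 95% interval of the difference reached 0.674 log2 units either side for the median member. It was narrowest for Cxcl1, a neutrophil-attracting ligand, at 0.315, and widest for Ccr7, at 3.31. Ccr7 also had the largest gap between pool 2 and the other arrays, at 3.70. For 33 of the 38, Cxcl1 among them, the gap between pool 2 and the other pools was larger than the gap between genotypes. The share of all genes for which this held was not computed. When pool number was fitted as a block, although the meaning of the numbers is not given in the sources used here, again 0 members passed, against 0.0149% of genes. In that fit 2 members (5.26%) had an unadjusted p under 0.05, against 4.32% of genes. These were Ackr3 and Cxcl13, both with a limma adjusted p of 0.99.

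**Figure D2:**
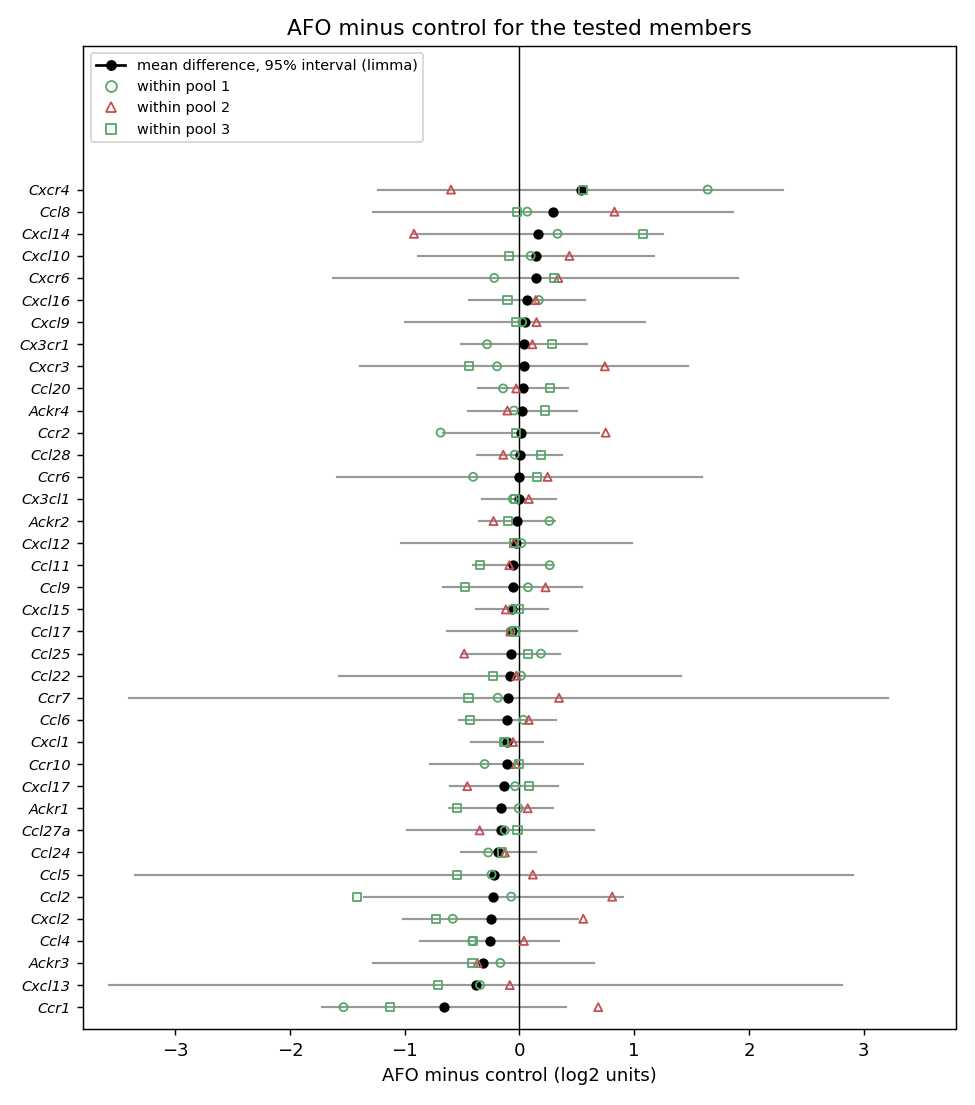
AFO minus control (log2 units, horizontal axis) for the 38 tested members, ordered by the mean difference. Black points are means over 3 pools with their 95% limma interval in grey, and open symbols are the differences within pools 1, 2 and 3. Every interval crosses 0, and for Ccr1 and Cxcr4 the pool 2 triangle lies on the other side of 0 from pools 1 and 3.

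The ligands Ccl6, Ccl9, Cxcl12, Cxcl13, Ccl8 and Ccl11 were picked for description by mean probe signal, which is not a ranking of their transcripts. Ccl6 (Entrez gene 20305), a myeloid-expressed ligand of Ccr1, read 11.00, 10.74 and 11.34 in control pools 1, 2 and 3 and 11.03, 10.82 and 10.91 in AFO pools 1, 2 and 3. The pool 2 values were the lowest of the 6, and the groups overlapped. The AFO minus control difference was -0.11 (SE 0.18, 95% interval -0.53 to 0.32, limma adjusted p 0.999999).

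Ccl9 (Entrez gene 20308), the other myeloid ligand of Ccr1, read 10.29, 9.96 and 10.93 in control and 10.36, 10.19 and 10.45 in AFO fat. Control pool 3 was the highest array and the pool 2 arrays the lowest, as for Ccl6. The groups overlapped, with a difference of -0.06 (SE 0.25). Ccl11 (Entrez gene 20292), also called eotaxin, which attracts eosinophils, read 8.53, 8.67 and 8.87 in control and 8.79, 8.58 and 8.52 in AFO fat. It was steady on all 6 arrays, which spanned 0.35, and the difference was -0.06 (SE 0.15). Ccl24, the other measured eotaxin, read 7.04, 6.87 and 7.10 in control and 6.77, 6.74 and 6.95 in AFO fat. AFO was lower within every pool, but control pool 2 lay below AFO pool 3, and the difference of -0.18 (SE 0.14) did not pass.

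Cxcl13 (Entrez gene 55985) attracts B cells through Cxcr5 and organises lymphoid follicles. It read 8.41, 11.52 and 7.98 in control pools 1, 2 and 3 and 8.06, 11.44 and 7.27 in AFO pools 1, 2 and 3. The pool 2 arrays were far above the rest in both genotypes, by 3.33 log2 units in control and 3.77 in AFO fat, each against the mean of pools 1 and 3. Within pools AFO was lower by small amounts (differences -0.34, -0.08 and -0.71), and the mean difference of -0.38 (SE 1.33) did not pass. A separate Cxcl13 probe set, 1448859_at, gave the same picture with 7.77, 10.55 and 7.74 in control and 7.69, 10.52 and 6.72 in AFO fat. The 250 bases before the Cxcl13 start (GRCm38.p6, chr5:95956689-95956938, plus strand, from RefSeq) are shown because this ligand had the largest pool 2 gap among the ligands, with a TATAAA match in capitals.
Cxcl13: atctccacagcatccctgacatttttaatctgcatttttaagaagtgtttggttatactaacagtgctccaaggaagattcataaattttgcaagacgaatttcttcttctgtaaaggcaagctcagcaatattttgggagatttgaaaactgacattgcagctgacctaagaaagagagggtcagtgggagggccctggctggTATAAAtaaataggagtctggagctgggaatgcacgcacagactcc
The match began 46 bases before the start.

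Cxcl12 (Entrez gene 20315), a stromal ligand of Cxcr4 and Ackr3, read 9.05, 10.33 and 9.46 in control and 9.07, 10.28 and 9.41 in AFO fat on the probe set used, 1448823_at. Both pool 2 arrays were above the other 4, and the difference between genotypes was -0.03 (SE 0.42). A different Cxcl12 probe set, 1417574_at, went the other way by pool, with 10.05, 8.93 and 10.02 in control and 10.12, 8.62 and 9.24 in AFO fat. Pool 2 stood 1.06 above the other arrays on the probe set used and at -1.08 from them on this probe set. The remaining set, 1439084_at, read between 4.64 and 5.65 and placed pool 2 at -0.16. The pool pattern of Cxcl12 therefore has no direction shared by its probe sets, and no probe set gave a call between genotypes.

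Of the monocyte-attracting ligands, Ccl8 (Entrez gene 20307) read 7.97, 9.46 and 8.41 in control and 8.04, 10.29 and 8.39 in AFO fat. Pool 2 was highest in both genotypes, and the genotype difference of 0.29 (SE 0.65) did not pass. Ccl2, the main ligand of Ccr2, read 5.48, 5.41 and 7.03 in control and 5.41, 6.22 and 5.62 in AFO fat. A single array, control pool 3, stood above the others, and the within-pool differences of -0.07, 0.81 and -1.42 had no shared sign. Ccl7 and Ccl12 lay below the filter, between 4.14 and 5.27 on all arrays. Cx3cl1, or fractalkine, the membrane-bound ligand of Cx3cr1, spanned only 0.26 over the 6 arrays, with a difference of -0.004 (SE 0.14).

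Among Ccl3, Ccl4 and Ccl5, which attract T cells and monocytes, Ccl5 (Entrez gene 20304) moved most between pools. It read 6.56, 9.63 and 6.23 in control and 6.32, 9.75 and 5.69 in AFO fat, with both pool 2 arrays 3 log2 units or more above the others. Its genotype difference was -0.22 (SE 1.30). Ccl4 spanned 5.04 to 5.89, with pool 2 at the top in both genotypes, and Ccl3 lay below the filter. Ccl22 (Entrez gene 20299), made by dendritic cells and read by Ccr4, read 5.31, 6.95 and 5.38 in control and 5.33, 6.93 and 5.15 in AFO fat. Its pool 2 arrays matched each other closely across genotypes, and the difference was -0.08 (SE 0.62). Ccl17, the other Ccr4 ligand, differed less between pools, with pool 2 at 6.12 and 6.04 against 5.38 to 5.76 elsewhere.

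Cxcl9, Cxcl10 and Cxcl11 are induced by interferon and attract T cells through Cxcr3. Cxcl9 (Entrez gene 17329) read 7.80, 8.54 and 7.32 in control and 7.83, 8.69 and 7.29 in AFO fat. Cxcl10 read 5.49, 5.93 and 4.92 in control and 5.59, 6.37 and 4.83 in AFO fat. In both genes and both genotypes pool 2 was highest, pool 1 next and pool 3 lowest, with genotype differences of 0.05 (SE 0.44) for Cxcl9 and 0.15 (SE 0.43) for Cxcl10. Cxcl11 lay below the filter at 3.65 to 4.16, and RefSeq lists it as a transcribed pseudogene in this mouse assembly, the only member of the 53 not listed as protein-coding. The 250 bases before the Cxcl9 start (GRCm38.p6, chr5:92328080-92328329, minus strand) and the Cxcl10 start (GRCm38.p6, chr5:92348890-92349139, minus strand) are shown because this pair of ligands moved together by pool, with motif matches in capitals.
Cxcl9: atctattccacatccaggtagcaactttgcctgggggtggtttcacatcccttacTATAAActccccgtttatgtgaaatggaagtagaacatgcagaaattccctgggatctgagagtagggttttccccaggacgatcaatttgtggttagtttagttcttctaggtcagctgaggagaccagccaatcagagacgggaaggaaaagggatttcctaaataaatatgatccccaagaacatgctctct
Cxcl10: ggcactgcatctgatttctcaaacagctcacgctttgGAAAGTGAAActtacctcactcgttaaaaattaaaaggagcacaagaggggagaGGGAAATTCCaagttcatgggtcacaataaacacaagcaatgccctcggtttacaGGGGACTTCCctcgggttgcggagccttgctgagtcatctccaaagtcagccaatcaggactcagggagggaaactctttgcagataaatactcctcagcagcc
In Cxcl9 the capitals mark a TATAAA match that began 195 bases before the start. In Cxcl10 they mark GGGAAATTCC and GGGGACTTCC, matches to the kappa B-like letters GGGNNNTTCC that began 159 and 104 bases before the start, and GAAAGTGAAA at 213, which matches the interferon response-like letters TTTCNNTTTC on the opposite strand.

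The same letters were searched on both strands in all promoters of the RefSeq table, each 300 bases long with 250 before and 50 after the start. The 3 motifs were searched separately, so matches may overlap. Of the 53 members 40 were in that table, with 44 promoters. The kappa B-like letters were found in 9 of the 44 (20.5%), in Ccl1, Ccl20, Ccl9, Ccr3, Ccr6, Cxcl1, Cxcl10, Cxcl2 and Cxcl3, against 5.56% of all 32851 promoters. TATAAA was found in 13 of the 44 (29.5%), against 13.6% of all, and the interferon response-like letters in 2 of the 44 (4.55%), Cxcl10 and Cxcl14, against 3.44%. Of the 10 matched members whose pool 2 arrays both lay above the other 4 and stood 1 log2 unit or more above their mean, the kappa B-like letters were in 1 (Ccr6), TATAAA in 4 (Ccl8, Cxcl13, Cxcl9 and Cxcr4) and the interferon response-like letters in 0. A match describes these letters and is not a measured site.

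The neutrophil-attracting ligands were low or flat. Cxcl1 read 7.37, 7.38 and 7.21 in control and 7.24, 7.32 and 7.08 in AFO fat, lower in AFO within each pool by little (mean difference -0.11, SE 0.13). That direction depends on the probe set: on 1419209_at the mean difference was 0.15. Cxcl2 ran from 4.40 to 5.62, highest in control pool 3. Cxcl15 spanned 0.32, and Cxcl3 and Cxcl5 lay at 2.19 to 2.70, below the filter.

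Of the 6 ligands usually made by epithelia and other barrier tissue (Ccl20, Ccl25, Ccl27a, Ccl28, Cxcl14 and Cxcl17), 3 had a higher and 3 a lower AFO mean, with 0 calls. Cxcl14, which is made by epithelia and by fat cells, read 6.21, 7.26 and 5.33 in control and 6.55, 6.34 and 6.41 in AFO fat. The control pools were spread over 1.92 log2 units and the AFO pools over far less, and the difference was 0.16 (SE 0.45). Ccl27a, a skin-homing ligand, was lowest in pool 2 in both genotypes, with 5.54 and 5.19 against 6.18 to 6.32 elsewhere. Ccl20, the Ccr6 ligand, stayed within 5.97 to 6.42, Ccl25, a gut and thymus ligand, within 4.67 to 5.21, and Cxcl17, a mucosal ligand, within 5.99 to 6.63.

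Ccl28, a mucosal epithelial ligand, differed between its probe sets. The probe set used, 1450217_at, read 5.74, 6.08 and 5.76 in control and 5.70, 5.94 and 5.95 in AFO fat, with a difference of 0.002 (SE 0.15). The probe set 1455577_at read 5.16, 5.19 and 4.45 in control and 6.88, 4.95 and 6.61 in AFO fat. AFO pools 1 and 3 were the high arrays there and AFO pool 2 was not, and the difference of 1.21 (SE 0.51) did not pass, with a limma adjusted p of 0.999971 among all probe sets. Of 7 listed epididymal epithelium markers 6 were measured, and they summed to 30.4 to 34.3 in control and 30.3 to 52.0 in AFO fat. Their median level was 9.28 and 8.69 in AFO pools 1 and 3 and between 4.53 and 5.37 on the other 4 arrays, and the part of these cells in the Ccl28 values was not tested.

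**Figure D3:**
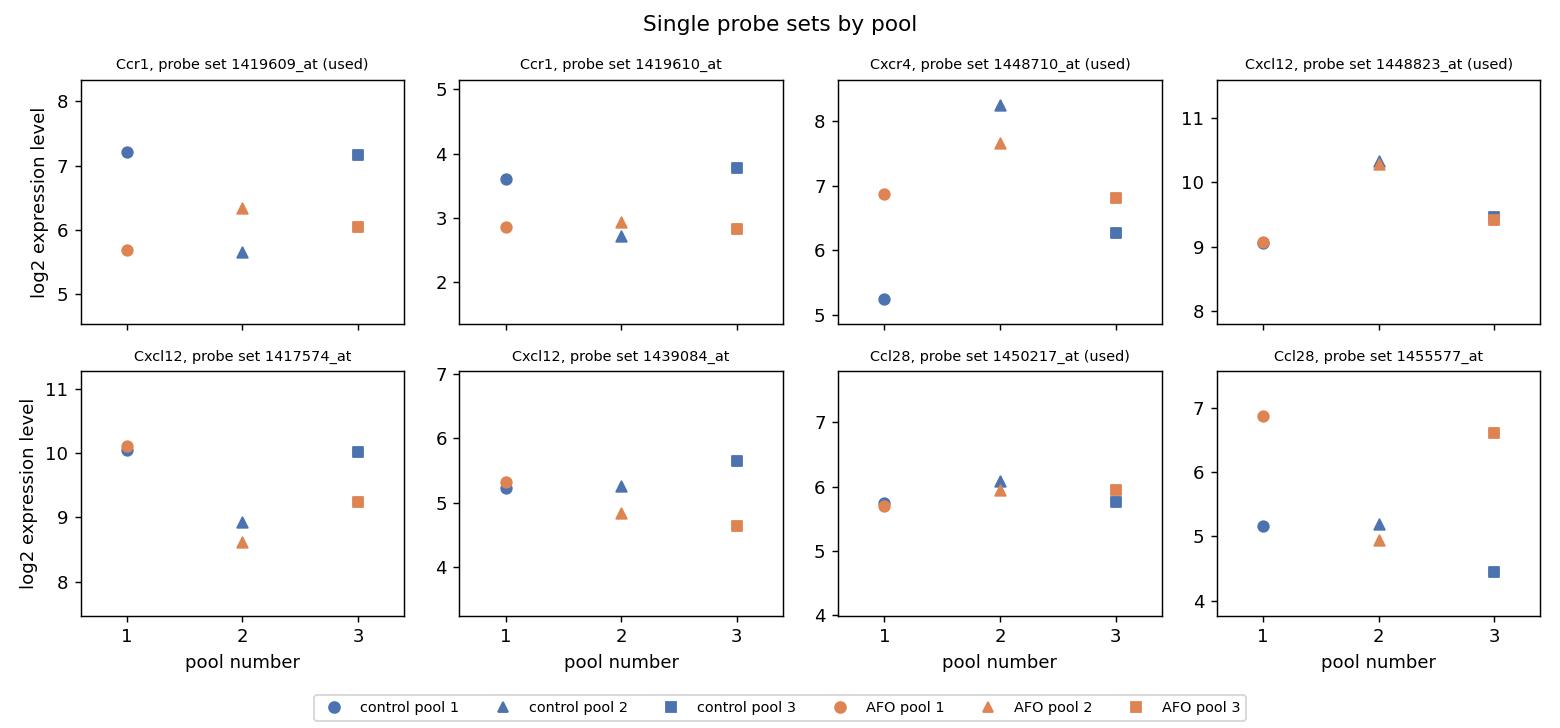
Log2 expression level (vertical axis) by pool number (horizontal axis) for single probe sets of Ccr1, Cxcr4, Cxcl12 and Ccl28, with control in blue and AFO in orange. Both Ccr1 probe sets have AFO below control in pools 1 and 3 and above it in pool 2. The Cxcl12 probe sets disagree on pool 2, and Ccl28 separates AFO pools 1 and 3 on 1455577_at and not on the set used.

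The receptors Ackr3, Ccr2, Ackr1 and Ackr2 were picked for description in the same way. Ackr3 (Entrez gene 12778), which scavenges Cxcl12, read 10.11, 9.25 and 10.40 in control and 9.94, 8.89 and 9.99 in AFO fat. It was lowest in pool 2 in both genotypes, and AFO was lower within each pool (differences -0.17, -0.36 and -0.41). The mean difference of -0.31 had a standard error of 0.40 unpaired and 0.10 with pool number as a block, and neither fit called it (limma adjusted p 0.999999 and 0.99).

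Ackr1 (Entrez gene 13349), which carries chemokines across venular endothelium, read 7.32, 7.61 and 7.72 in control and 7.32, 7.68 and 7.17 in AFO fat. The genotypes were close in pools 1 and 2 and furthest apart in pool 3, with a difference of -0.16 (SE 0.19). Ackr2 (Entrez gene 59289), a decoy for inflammatory CC chemokines, read 7.20, 7.46 and 7.41 in control and 7.46, 7.23 and 7.30 in AFO fat. These 6 values spanned 0.26, and the difference was -0.02 (SE 0.14). Ackr4, which clears homeostatic CC chemokines, spanned 0.59 with a difference of 0.02 (SE 0.20).

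Ccr2 (Entrez gene 12772), the monocyte receptor for Ccl2, read 8.05, 7.22 and 7.35 in control and 7.36, 7.98 and 7.31 in AFO fat. The high arrays were control pool 1 and AFO pool 2, the groups overlapped, and the difference was 0.01 (SE 0.28). Cx3cr1, the fractalkine receptor of monocytes and macrophages, ran from 4.97 to 5.68 with a difference of 0.04 (SE 0.23).

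Ccr1 (Entrez gene 12768), the myeloid receptor that binds Ccl6 and Ccl9, had the largest AFO minus control difference of the tested members in size. It read 7.22, 5.65 and 7.17 in control pools 1, 2 and 3 and 5.69, 6.34 and 6.04 in AFO pools 1, 2 and 3. Control pools 1 and 3 were the high arrays, control pool 2 was the lowest of all, and the groups therefore overlapped. The within-pool differences were -1.53, 0.69 and -1.13, and the mean difference of -0.66 (SE 0.44, 95% interval -1.72 to 0.41) had a limma adjusted p of 0.999999.

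Without both pool 2 arrays, which leaves 2 pools a genotype, the Ccr1 difference was -1.33 (SE 0.18, 95% interval -1.74 to -0.91) with a limma adjusted p of 0.0175. It was the 1 member called there, when 0.676% of all genes were called in either direction and 0.0149% of all genes were called lower in AFO. Adding the block gave a limma adjusted p of 0.000121 for Ccr1, when 2.01% of all genes were called. With so few arrays left, that fit takes most of its estimate of spread from other genes. It also pairs arrays by pool numbers whose meaning is not given, so its p-value says little about the Ccr1 replicates themselves. Leaving out control pool 2 alone gave -1.17 and leaving out AFO pool 2 alone gave -0.82, with adjusted p values of 0.9998 and 0.9978 by limma. The other Ccr1 probe set, 1419610_at, was below the filter, with 3.61, 2.72 and 3.78 in control and 2.86, 2.94 and 2.83 in AFO fat, again high in control pools 1 and 3. Macrophage markers, 9 measured of 10 listed, summed to 84.5 to 88.5 in control and 84.5 to 86.6 in AFO fat, and the median of their differences was -0.11, 0.17 and -0.30 within pools 1, 2 and 3. The epididymal markers were high in AFO pools 1 and 3 and the skeletal muscle markers in AFO pool 1 (median 9.50, against 4.45 in control pool 1), and the part of these cell types in the Ccr1 values was not tested. The 250 bases before the Ccr1 start (GRCm38.p6, chr9:123968693-123968942, minus strand) are shown because this receptor had the largest genotype difference, and they held none of the 3 motifs.
Ccr1: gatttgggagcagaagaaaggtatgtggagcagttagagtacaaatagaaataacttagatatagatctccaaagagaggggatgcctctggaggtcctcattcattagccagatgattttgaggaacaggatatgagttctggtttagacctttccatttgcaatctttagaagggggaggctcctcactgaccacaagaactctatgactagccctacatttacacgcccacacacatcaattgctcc
The absence of these letters says nothing about the factors that bind them.

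Cxcr4 (Entrez gene 12767), the signalling receptor for Cxcl12, read 5.24, 8.26 and 6.26 in control and 6.88, 7.66 and 6.82 in AFO fat. Pool 2 was highest in both genotypes, and control pool 1 was the lowest array. Within pools the difference was 1.64, -0.60 and 0.55, so that the mean of 0.53 (SE 0.73) did not pass. Without both pool 2 arrays the difference was 1.10 (SE 0.30), with a limma adjusted p of 0.372, and with the block added the SE was 0.22 and the limma adjusted p 0.00711. That last fit called 2 of the 38 members, Ccr1 and Cxcr4, and 2.01% of all genes. As for Ccr1, its p-value rests mostly on spread borrowed from other genes and on pool numbers of unknown meaning. Markers of other tissues moved on the same arrays: the epididymal markers had a median of 9.28 and 8.69 in AFO pools 1 and 3 against 5.37 and 4.53 in control pools 1 and 3. Skeletal muscle markers had a median of 9.50 in AFO pool 1 and 4.45 in control pool 1, and of 3.97 and 4.31 in AFO and control pool 3. The part of these tissues in the Cxcr4 values was not tested. Without control pool 1 the Cxcr4 difference was -0.14, so its sign rests on that array.

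Several receptors of lymphocytes were high in pool 2 of both genotypes. Ccr7 (Entrez gene 12775), which guides T cells and dendritic cells into lymph nodes, read 4.45, 7.69 and 4.20 in control and 4.26, 8.04 and 3.76 in AFO fat. The pool 2 arrays were 3 log2 units or more above every other array, and the genotype difference was -0.10 (SE 1.38). Cxcr6 (Entrez gene 80901), the receptor for Cxcl16 on T and NKT cells, read 4.86, 6.36 and 4.29 in control and 4.64, 6.70 and 4.60 in AFO fat. Ccr6, the Ccl20 receptor of B cells and Th17 cells, read 5.38, 6.62 and 4.79 in control and 4.97, 6.87 and 4.94 in AFO fat. Both again had pool 2 on top and overlapping genotypes. Cxcr3, the receptor for Cxcl9 and Cxcl10, read 6.35, 7.21 and 6.19 in control and 6.15, 7.95 and 5.75 in AFO fat, the same order of pools in each genotype. Ccr10, a receptor for Ccl27a and Ccl28 on skin-homing and mucosal lymphocytes, read 5.74 and 5.71 in pool 2 and 4.98 to 5.31 elsewhere. Cxcl16, the ligand of Cxcr6, read 7.28, 7.62 and 7.21 in control and 7.45, 7.76 and 7.10 in AFO fat, so that pool 2 was highest for this pair of ligand and receptor in both genotypes.

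Cxcr5 and Ccr9 lay below the filter through their 4 low arrays and were not tested. Cxcr5 (Entrez gene 12145), the B cell receptor for Cxcl13, read 3.88, 6.43 and 3.82 in control and 3.75, 7.02 and 3.61 in AFO fat. Ccr9 (Entrez gene 12769), a gut-homing receptor, read 3.40, 5.16 and 3.60 in control and 3.56, 6.10 and 3.94 in AFO fat on the probe set used, with pool 2 at 2.01 above the other arrays. Its remaining probe sets moved less, by 0.22 to 0.78. The set used was picked by its mean over all 6 arrays, to which pool 2 adds. Outside pool 2 it read 3.40 to 3.94, and 1421919_a_at read 3.68 to 4.02, so the gap of 2.01 belongs to a set chosen partly for high pool 2 values. The receptors Ccr3, Ccr4, Ccr8, Cxcr2 and Xcr1 stayed between 2.88 and 4.63 on all arrays, and the ligands Ccl1 and Xcl1 between 4.22 and 5.01.

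Counted over the 38 tested members, both pool 2 arrays lay above all other arrays for 20 (52.6%), against 18.1% of all genes, and below them for 4 (10.5%), against 31.0%. The 4 were Ackr3, Ccl27a, Ccl6 and Ccl9. Pool 2 stood 1 log2 unit or more above the mean of the other arrays for 11 members (28.9%), against 3.18% of genes: Ccr7, Cxcl13, Ccl5, Cxcr6, Ccr6, Ccl8, Cxcr4, Ccl22, Cxcr3, Cxcl12 on the probe set used, and Cxcl9. It stood that far below for 1 (2.63%), Ackr3, against 3.99% of genes. These counts are a description with no test, because the study's groups are genotypes and not pools. The filter used means that include the pool 2 arrays. On the remaining arrays Ccr7 read 3.76 to 4.45 and Cxcr6 4.29 to 4.86, under the filter level of 4.88. Both were therefore counted here only through pool 2. The Cxcl12 probe set was likewise picked by its mean over all 6 arrays. Of 8 listed lymph node genes 6 were measured, Cxcl13 among them, and they summed to 46.5 to 46.8 in pool 2 and 35.2 to 37.6 elsewhere. Nearly all of that gap came from Glycam1 and Cxcl13, with pool 2 at 6.04 and 3.55 above the other arrays, while Madcam1 (0.40), Tnfsf11 (0.43), Chst4 (-0.50) and Mfge8 (-0.10) moved less. Glycam1, a secreted ligand of lymph node vessels, read 4.38, 10.28 and 4.51 in control and 5.33, 10.81 and 3.81 in AFO fat. Other cell types differed in pool 2 as well. Neutrophil markers, 5 measured of 6 listed, summed to 32.8 to 37.4 in pool 2 and 26.4 to 27.1 elsewhere. Most of that gap came from S100a8 (2.97), S100a9 (2.82) and Ngp (1.98), while Csf3r (0.45) and the member Cxcr2 (0.18) moved less. Mesothelial markers, 7 of 7, summed to 34.2 to 40.9 in pool 2 and 56.9 to 57.8 elsewhere. Among them Krt18 did not follow in control fat, with 8.02 in pool 2 and 7.06 in pools 1 and 3, but read lowest in AFO pool 2 at 5.73. Krt19 fell little in control fat, with 7.61 in pool 2 against 7.95 and 7.92 in pools 1 and 3, and read 4.96 in AFO pool 2. Skeletal muscle markers, 6 of 6, summed to 57.2 to 71.7 in pool 2 and 26.5 to 58.3 elsewhere. The part of RNA from any of these cell types in the chemokine values was not tested.

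**Figure D4:**
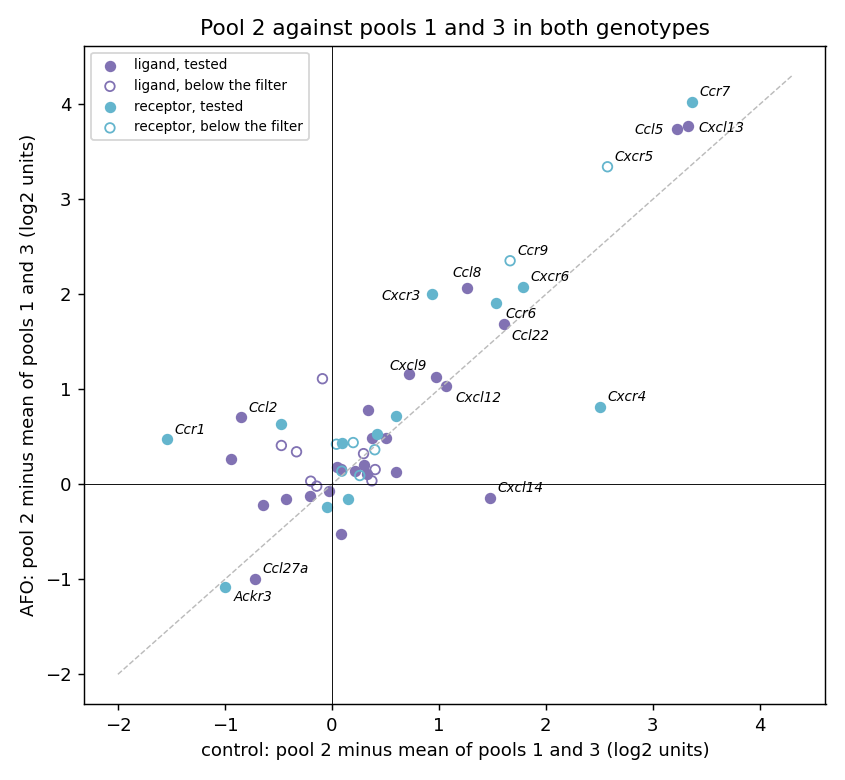
Pool 2 minus the mean of pools 1 and 3 (log2 units) in control (horizontal axis) and AFO fat (vertical axis), with 1 point a member, filled where tested and open where below the filter. Ccr7, Cxcl13, Ccl5 and Cxcr5 lie at the top right, Ackr3 and Ccl27a at the lower left, and Ccr1, Cxcl14 and Cxcr4 lie away from the dashed line of equal values.

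Neighbours in the genome were compared next. All 53 members were found in RefSeq, and 25 of them stood in 7 runs with no other protein-coding gene between. In the run Ccl5, Ccl9, Ccl6, Ccl3 and Ccl4, pool 2 stood 3.49 above the other arrays for Ccl5 and at -0.43 and -0.29 from them for its neighbours Ccl9 and Ccl6. In the run Ccl2, Ccl7, Ccl11, Ccl12, Ccl8 and Ccl1, this value ran from -0.07 for Ccl2 to 1.67 for Ccl8. In the run Cxcr6, Xcr1 and Ccr1 it was 1.93 for Cxcr6 and -0.53 for Ccr1. Genotype differences within the 7 runs lay between -0.66 and 0.29, with 0 calls.

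Relatives and partners of the chemokine system gave 0 calls in each of 3 lists by limma. Of the chemokines and relatives outside the name pattern 7 of 7 were tested, 4 lower in AFO, with a median difference of -0.11. They included Ppbp, a platelet chemokine that draws neutrophils, at -0.49 (SE 0.34), Pf4, platelet factor 4, at -0.27 (SE 0.31), Ccrl2, a chemerin-binding receptor without signal of its own, at -0.15 (SE 0.13), and Rarres2, the adipokine chemerin, at -0.11 (SE 0.26). Of 28 listed genes of receptor signalling 25 were tested, 12 lower, with a median of 0.03. Its smallest p values belonged to the G protein subunit Gnai2 at 0.17 (SE 0.18), the kinase Ptk2b at 0.17 (SE 0.19), Arrb2, beta-arrestin 2, at 0.16 (SE 0.20) and the receptor kinase Grk5 at -0.29 (SE 0.36).

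Of 15 listed genes of leukocyte adhesion and lymph node entry 12 were tested, 7 lower, with a median of -0.06. Selp, or P-selectin, which lets leukocytes roll on vessel walls, read 7.66, 7.58 and 7.86 in control and 7.07, 7.21 and 7.53 in AFO fat. Every AFO array was below every control array for Selp alone of the 12, as for 1.47% of all genes. Its difference was -0.43 (SE 0.17), with a limma adjusted p of 0.999999. The unadjusted limma p was 0.0372, and 1.03% of all genes had one under 0.05. Endothelial markers, 7 measured of 7 listed, all had a lower AFO mean, against 54.3% of all genes. Their median difference was -0.17, with genotypes overlapping for each, and the part of vessel cells in the Selp values was not tested. The integrin genes Itgam at -0.50 (SE 0.39) and Itgb2 at -0.25 (SE 0.31) and the sulphotransferase gene Chst4 at -0.14 (SE 0.24) overlapped between genotypes.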

How the data were processed

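The deposited values are log2 expression levels of Affymetrix 3' arrays, made by the authors with RMA (background correction, quantile normalisation and probe set summary) in Affymetrix Expression Console 1.4, per the submitters' processing notes. Quantile normalisation hides a change shared by most genes, and RMA draws dim signals together. Of 45101 probe sets, 34945 had 1 symbol; 4 that pair a matching symbol with other genes were not used. Genes were tested with limma 3.58.1 in R 4.3.3 (unpaired, eBayes with trend), adjusted over 13453 genes by Benjamini-Hochberg, and called at an adjusted p under 0.05. The members and lists were chosen with earlier results of these data known. Named with a value in each array were the ligands and receptors with the highest means, those with the largest pool 2 gaps, any called under an alternative, and others in a sentence on their group. Between arrays of equal pool number, deviations from genotype means correlated at 0.594, 0.799 and 0.589 in pools 1, 2 and 3 (across genes, not independent replicates). The deviations within a genotype sum to 0, so a pool 2 shift shared by both genotypes by itself raises the values for pools 1 and 3. Unequal numbers were not compared, so these correlations cannot show whether pools 1 or 3 are pairs. What equal numbers share is not given in the sources used here. The fit was also run on simulated data with known changes. Their arrays were drawn independently, with no shift shared by the pool 2 arrays, so that run does not cover the pool pattern seen here.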

Additional observations from a re-analysis of the deposited data

How the results depend on the processing

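The count of genes called, 0 in the unpaired fit, was 2 with pool number as a replicate block, 91 when both pool 2 arrays were left out, 270 when the block was added to that, and 139 at an unadjusted p under 0.05. Leaving out each array in turn gave 0 to 27 genes, the 27 without AFO pool 2. The count of members called, 0 in the unpaired fit, was 1 in the fit of pools 1 and 3 alone and 2 when the block joined it. It stayed at 0 with the block alone and with each array left out, and the block alone changed no member's call. Of 687 values of single members under the alternatives, 677 neither gained a call nor moved by more than the spread between replicates. That spread is taken within each genotype and includes the pool 2 shift. It is so wide for members such as Ccr7 that this count says little about how steady they are. A call was gained by 3 (Ccr1 in 2 settings, Cxcr4 in 1), and 7 stayed uncalled but moved by more than that spread. Among the 38 tested members, 34 changed sign under at least 1 setting without a call, so their directions are not settled. The Ccr1 difference ran from -1.33 to -0.39 (limma adjusted p 0.000121 to 1) and that of Cxcr4 from -0.14 to 1.48 (limma adjusted p 0.00711 to 1). The lowest adjusted p of each came from the fit of pools 1 and 3 with the block, which borrows most of its spread from other genes. The cause of these changes was not tested. With 3 pools a genotype, the number of arrays limits every interval.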
